A study of Mus musculus with 6 samples.

Results

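The 10 genes described here encode the core of the mouse microRNA machinery: Drosha and Dgcr8 of the nuclear Microprocessor, the export receptor gene Xpo5, the cytoplasmic nuclease gene Dicer1 with its partner genes Tarbp2 and Prkra, the Argonaute genes Ago1, Ago2 and Ago3, and the silencing scaffold gene Tnrc6a. They were chosen by symbol, as members of this pathway, and all 10 were found, with 1 probe set each, among 18784 genes measured. The cells were cultured mouse B lymphoma cells, Arf-/-, with the Eu-myc and Bcl-2 transgenes, kept on feeder layers of irradiated Arf-/- mouse embryonic fibroblasts. Eu-myc is a transgene in which an immunoglobulin enhancer drives MYC expression in B cells, so both groups share the Arf loss and both transgenes. Cells had been transduced with the short hairpin RNA (shRNA) Dhx9.1241, named for the RNA and DNA helicase gene Dhx9 (3 arrays), or with Rluc.713, a control hairpin named for Renilla luciferase (3 arrays). The study looked for modifiers of the response to ABT-737, which blocks anti-apoptotic BCL-2 proteins, but the labels name no drug on these arrays. The labels do not say whether replicate arrays stand for independent cultures, so the p-values measure only array-to-array spread, part of which may be technical.

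A microRNA is cut from a hairpin in a longer transcript. In the nucleus DROSHA, a ribonuclease of the RNase III class, cuts the base of the hairpin while DGCR8 holds it; exportin 5, the product of Xpo5, carries the product to the cytoplasm, where DICER1 removes the loop and an Argonaute protein takes 1 strand into the RNA-induced silencing complex (RISC). Short hairpins delivered by a vector are matured by steps of the same route. The sequences of the hairpins were not in the sources used here, so which steps they need is not stated. Human DHX9 has been described as a protein of RISC loading, so both the tool and the gene it names touch this pathway. The arrays measure messenger RNA, and neither the proteins nor mature microRNAs were measured.

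The sequences shown are from RefSeq on build GRCm38.p6, and the first of them belong to the Microprocessor genes Drosha and Dgcr8. The Dgcr8 gene, on the minus strand of chromosome 16, holds the annotated microRNA hairpin Mir1306 within its span, on the same strand, and the Microprocessor is known to cut hairpins in the Dgcr8 transcript itself. The mature microRNAs of that hairpin lie at chr16:18284288-18284310 and chr16:18284248-18284268, and capitals mark the seed, bases 2 to 8.
mmu-miR-1306-5p: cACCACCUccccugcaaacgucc
mmu-miR-1306-3p: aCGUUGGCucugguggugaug

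The upstream sequences of Drosha and Dgcr8 are shown because these partner genes had changes of opposite sign in the comparison below. Each is the 250 bases before the annotated start, at chr15:12824565-12824814 on the plus strand for Drosha and chr16:18289169-18289418 on the minus strand for Dgcr8. Capitals mark CCAAT, or ATTGG where it is read on the other strand, the sequence bound by the factor NF-Y.
Drosha: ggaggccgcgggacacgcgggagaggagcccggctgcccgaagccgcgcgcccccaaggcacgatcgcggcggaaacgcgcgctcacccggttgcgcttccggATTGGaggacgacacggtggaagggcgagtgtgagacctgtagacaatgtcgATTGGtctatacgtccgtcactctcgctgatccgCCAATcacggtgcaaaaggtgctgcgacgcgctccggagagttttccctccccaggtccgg
Dgcr8: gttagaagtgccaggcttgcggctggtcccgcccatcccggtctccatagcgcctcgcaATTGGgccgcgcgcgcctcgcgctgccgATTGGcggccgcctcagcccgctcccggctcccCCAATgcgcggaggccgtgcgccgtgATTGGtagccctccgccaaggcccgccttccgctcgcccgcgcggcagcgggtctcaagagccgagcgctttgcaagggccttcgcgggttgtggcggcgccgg
CCAAT was present 3 times before Drosha and 4 times before Dgcr8, and in 5 of the 9 genes with a listed promoter, against 33.8% of all 32851 listed promoters. The MYC-type E-box CACGTG, which reads the same on both strands, was searched in the same windows. It was present in 0 of the 9 genes, against 6.02% of all promoters. The counts here were by gene, with Ago1, which has several listed starts, counted once, and Ago2 had no listed promoter. The shares of all promoters were by promoter. These are matches of letters and say nothing of binding in these cells.

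Dhx9 fell in the cells that carry its hairpin. The Dhx9 log2 level was 11.46, 11.43 and 11.38 in Dhx9.1241 cells, against 12.40, 12.48 and 12.36 in Rluc.713 cells, a log2 change of -0.99 (SE 0.053, limma adjusted p = 0.000129). Sample titles name Dhx29, a helicase gene of translation initiation, in its place. Dhx29 had a log2 change of 0.04 (SE 0.053, limma adjusted p = 0.857), so the groups are called by their hairpins. Of 10 measured B cell markers, all lay in the upper part of the signal range, from the 69.1th to the 99.9th percentile of genes. Their summed signal, on the log2 scale, was 16.28 to 16.35 in Dhx9.1241 cells and 16.35 to 16.45 in Rluc.713 cells, and 8 of the 10 changes were negative. Of these markers 1 was called: Vpreb3, a gene of the B cell lineage, fell, with a log2 change of -0.57 (SE 0.047, limma adjusted p = 0.000891). Rluc.713 replicate 1 stood apart from the other 2 controls, at -16.7 on the second principal component, which held 34.4% of the variance, against 4.81 and 5.29. The changes of the 10 genes are therefore also given without it. The summed signal of 11 measured myeloid markers was 12.24 to 12.30 in Dhx9.1241 cells and 12.67 to 12.73 in Rluc.713 cells. Of the 11, 4 were called, all lower, beside 1.07% of all genes called lower. These were Lyz2 (log2 change -1.31, the lowest of all genes), Csf1r (-0.45), Tyrobp (-0.37) and Fcer1g (-0.32). Of the 11 changes 10 were negative. The 1 positive change was that of Itgam, named after its values were seen, at 0.21 (limma adjusted p = 0.152). The summed signal of 10 T and NK cell markers was 12.05 to 12.21 in Dhx9.1241 cells and 12.22 to 12.34 in Rluc.713 cells, with none called. Il7r, named after its values were seen, gave the highest signal of them, and is also a gene of B cell progenitors; the mean log2 level of the 10 overlapped, at 7.69 to 7.73 in Dhx9.1241 cells and 7.69 to 7.76 in Rluc.713 cells. The summed signal of 14 markers of fibroblasts, of which the feeders consist, was 11.99 to 12.02 in Dhx9.1241 cells and 11.97 to 12.18 in Rluc.713 cells, with only Cav1 called, lower. The 12.18 was that of Rluc.713 replicate 1, against 11.97 and 11.99 in the other 2 controls. Many of these other markers were dim. The median log2 level was 8.05 for the myeloid, 7.35 for the T and NK cell and 8.19 for the fibroblast markers, beside 8.47 over all genes. The dimmest lay at the 9.4th, 11.1th and 7.3th percentile of genes. Whether other cells or the lymphoma cells themselves gave these signals was not tested. Fewer cells of a type and less RNA per cell cannot be told apart in such bulk samples. The part of any such cells in the results below was not tested either.

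None of the 10 genes passed the test with all arrays, and their group means differed by at most 1.18-fold. Of all 18784 genes, 3.14% were called at an adjusted p under 0.05 (limma, Benjamini-Hochberg over all genes), 2.07% higher and 1.07% lower. Before that adjustment, at p under 0.05, Drosha was higher and Dgcr8, Prkra and Ago1 were lower, 4 of the 10 genes, against 14.1% of all genes (8.5% higher and 5.63% lower) and 22.1% of genes brighter than the median gene, where 9 of the 10 lay. The groups of arrays did not overlap for 5 of the 10 genes, higher for Drosha and Ago2 and lower for Dgcr8, Prkra and Ago1. This compares with 20.1% of all genes (11.6% higher and 8.51% lower) and 31.5% of those brighter than the median gene. The median log2 change of the 10 genes was -0.02, beside 0.0049 over all genes. Their changes ran from -0.20 to 0.23, with 4 positive and 6 negative.

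**Figure D1:**
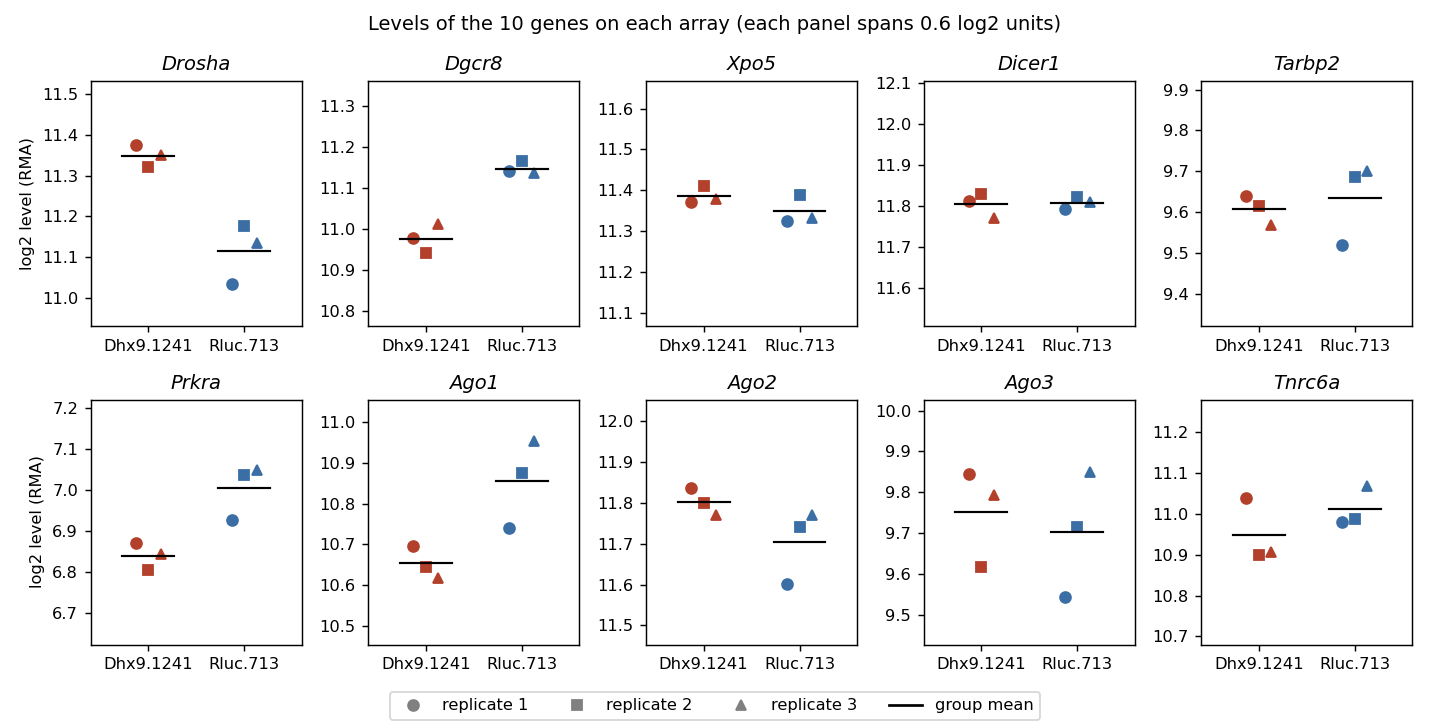
Log2 level (RMA) of each of the 10 genes on each array, with Dhx9.1241 left of Rluc.713 in every panel; symbols give the replicate number, lines the group mean, and every panel spans the same height. Drosha lies higher on all 3 Dhx9.1241 arrays and Dgcr8, Prkra and Ago1 lower, while the groups of Xpo5, Dicer1, Tarbp2, Ago3 and Tnrc6a overlap.

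The Microprocessor genes held the largest positive change of the 10 genes and a negative one side by side. The Drosha log2 level was 11.37, 11.32 and 11.35 in Dhx9.1241 cells, against 11.03, 11.18 and 11.14 in Rluc.713 cells. All 3 Dhx9.1241 arrays lay above all controls, and the lowest control was replicate 1. The log2 change of Drosha was 0.23 (SE 0.054, 95% interval 0.11 to 0.36), 1.18-fold, with a limma adjusted p of 0.0627. It passed the threshold in 6 of 16 alternative analyses, among them quantile normalization again (adjusted p = 0.0179) and robust limma with a variance trend (0.00923), and its adjusted p ranged up to 0.24 over all of them. Without Rluc.713 replicate 1 the change of Drosha was 0.19 (adjusted p = 0.0621).

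The Dgcr8 log2 level was 10.98, 10.94 and 11.01 in Dhx9.1241 cells, against 11.14, 11.17 and 11.14 in Rluc.713 cells. Every Dhx9.1241 array lay below every control, and the controls, replicate 1 included, were within 0.030 of each other. The log2 change of Dgcr8 was -0.17 (SE 0.046, 95% interval -0.28 to -0.07, limma adjusted p = 0.107). It passed in 3 of 16 alternatives, where its adjusted p ran from 0.0289 to 0.366, and without Rluc.713 replicate 1 it was -0.17 (adjusted p = 0.0848). Since DROSHA and DGCR8 work as 1 complex, the difference between their 2 log2 signals was also taken on each array, which removes what an array shares between both; this pair was chosen after its values were seen and has no test. The Drosha minus Dgcr8 difference was 0.40, 0.38 and 0.34 in Dhx9.1241 cells, against -0.11, 0.0093 and -0.00043 in Rluc.713 cells. The group means were 0.37 ± 0.031 and -0.03 ± 0.065 (SD, n = 3 each). Drosha was higher and Dgcr8 lower without overlap, so the groups of this difference had to be separate. Neither gene was called on its own, and such a difference does not say which transcript is the more abundant.

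Export and the Dicer step showed smaller differences. Xpo5, whose product leaves the nucleus with its cargo and the small GTPase RAN, had log2 levels of 11.37, 11.41 and 11.38 in Dhx9.1241 cells, against 11.33, 11.39 and 11.33 in Rluc.713 cells. The groups overlapped, and the log2 change was 0.04 (95% interval -0.07 to 0.14, limma adjusted p = 0.857), and 0.03 without Rluc.713 replicate 1 (0.78). Dicer1 had log2 levels of 11.81, 11.83 and 11.77 in Dhx9.1241 cells, against 11.79, 11.82 and 11.81 in Rluc.713 cells. Its change was the smallest of the 10, -0.0041 with a 95% interval of -0.11 to 0.10 (limma adjusted p = 0.992), so a change of Dicer1 messenger RNA larger than about 0.11 on the log2 scale lies outside the interval. It was -0.01 without Rluc.713 replicate 1 (adjusted p = 0.911).

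The 2 double-stranded RNA-binding partners of Dicer are related proteins: TARBP2, also called TRBP, supports RISC loading, and the product of Prkra, also called PACT, is an activator of the kinase PKR as well. Tarbp2 had log2 levels of 9.64, 9.61 and 9.57 in Dhx9.1241 cells, against 9.52, 9.69 and 9.70 in Rluc.713 cells. Rluc.713 replicate 1 lay below all other arrays and replicates 2 and 3 above them, so the groups overlapped; the log2 change was -0.03 (95% interval -0.17 to 0.11, limma adjusted p = 0.94), and without replicate 1 it was -0.09 (adjusted p = 0.332). Prkra had log2 levels of 6.87, 6.80 and 6.84 in Dhx9.1241 cells, against 6.93, 7.04 and 7.05 in Rluc.713 cells, with no overlap. Its log2 change was -0.17 (SE 0.053, 95% interval -0.29 to -0.04, limma adjusted p = 0.176). Prkra was the dimmest of the 10 signals, at the 20.0th percentile of genes, where RMA compresses differences. Its adjusted p was 0.0324 to 0.485 over 14 alternatives, with 1 call, from array weights, and 0.0518 without Rluc.713 replicate 1.

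The Argonaute genes did not share 1 sign. AGO2 is the Argonaute best known for cutting a matched target, which makes it the main effector of perfectly paired short hairpins, while AGO1 mostly acts through its partners. Ago1 had log2 levels of 10.70, 10.65 and 10.62 in Dhx9.1241 cells, against 10.74, 10.87 and 10.95 in Rluc.713 cells. All Dhx9.1241 arrays lay below all controls, the nearest control being replicate 1. The log2 change of Ago1 was -0.20 (SE 0.063, 95% interval -0.35 to -0.06, limma adjusted p = 0.167). Without Rluc.713 replicate 1, Ago1 was called, at -0.26 (adjusted p = 0.0303), the only one of the 10 genes called in that fit, which called 4.77% of all genes; its adjusted p was 0.0231 to 0.404 over 16 alternatives, with 4 calls.

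Ago2 had log2 levels of 11.84, 11.80 and 11.77 in Dhx9.1241 cells, against 11.60, 11.74 and 11.77 in Rluc.713 cells. The groups touched without overlap, and the log2 change was 0.10 (95% interval -0.04 to 0.23, limma adjusted p = 0.569). It was 0.05 without Rluc.713 replicate 1 (adjusted p = 0.613). On each array, the Ago2 minus Ago1 difference of the log2 signals was 1.14, 1.15 and 1.15 in Dhx9.1241 cells, against 0.86, 0.87 and 0.81 in Rluc.713 cells. The SDs were 0.0067 and 0.029 (n = 3 each). Here too the groups had to be separate, since Ago2 was higher and Ago1 lower without overlap. This pair too was chosen after its values were seen, has no test, and does not compare the abundance of the 2 transcripts. Ago3 had log2 levels of 9.84, 9.62 and 9.79 in Dhx9.1241 cells, against 9.54, 9.72 and 9.85 in Rluc.713 cells. It spread the most within each group, and its change of 0.05 (95% interval -0.16 to 0.25, limma adjusted p = 0.927) was -0.03 without Rluc.713 replicate 1 (0.854).

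**Figure D2:**
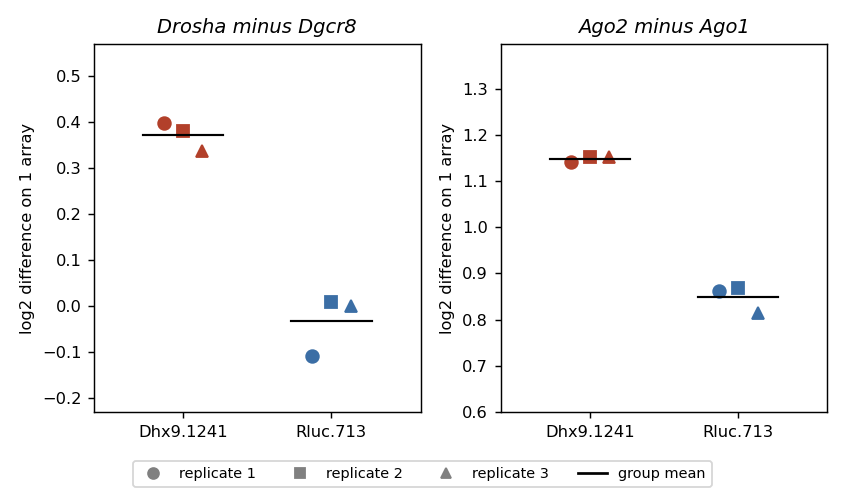
Difference of 2 log2 signals on each array, Drosha minus Dgcr8 on the left and Ago2 minus Ago1 on the right, with Dhx9.1241 left of Rluc.713 in each panel; symbols give the replicate number and lines the group mean. All 3 Dhx9.1241 arrays lie above all 3 controls in both panels, which follows from the levels of the single genes.

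Tnrc6a encodes GW182, the scaffold that joins an Argonaute to the deadenylases which shorten the tails of target messages. It had log2 levels of 11.04, 10.90 and 10.91 in Dhx9.1241 cells, against 10.98, 10.99 and 11.07 in Rluc.713 cells. The groups overlapped through Dhx9.1241 replicate 1, and the log2 change was -0.06 (95% interval -0.19 to 0.07, limma adjusted p = 0.773), and -0.08 without Rluc.713 replicate 1 (0.491). The other family members were not called either: Ago4 had a log2 change of 0.12 (limma adjusted p = 0.538), Tnrc6b one of 0.14 (0.237) and Tnrc6c one of 0.08 (0.595). Without Rluc.713 replicate 1, Ago4 was at 0.08 (0.548), Tnrc6b at 0.12 (0.215) and Tnrc6c at 0.06 (0.557). Whether a probe set of these families also reads its paralogs was not tested.

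**Figure D3:**
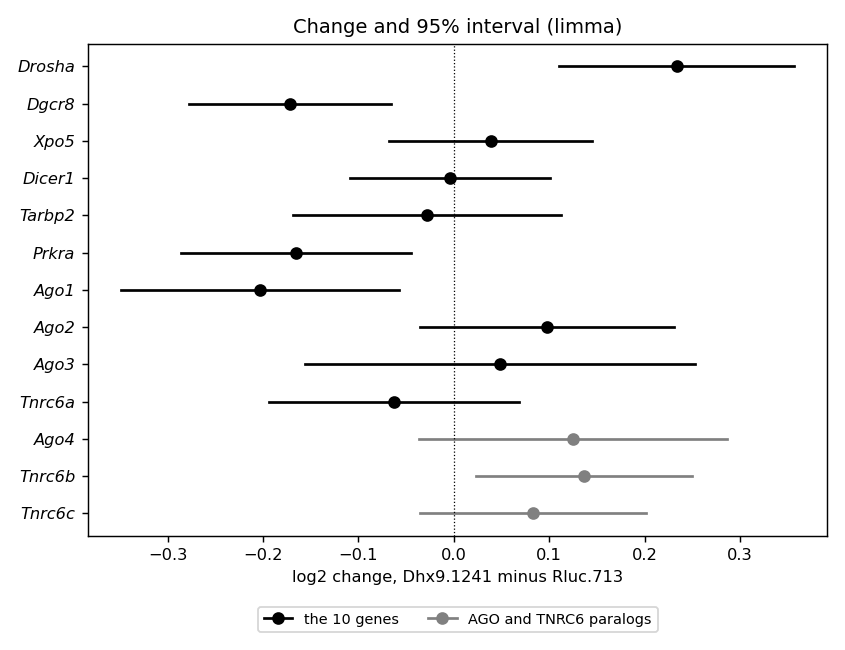
Log2 change, Dhx9.1241 minus Rluc.713, of the 10 genes (black) and of Ago4, Tnrc6b and Tnrc6c (grey), with 95% intervals from limma. The intervals of Drosha, Dgcr8, Prkra, Ago1 and Tnrc6b leave out 0 before adjustment for the number of genes, and the others span it.

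Rluc.713 replicate 1 was the lowest of the 3 controls for 9 of the 10 genes, all but Dgcr8. The same was true of 38.8% of all genes and of 64.3% of genes brighter than the median gene, but of 13.3% of the dimmer ones, so the offset of this array depended on brightness. Leaving it out lowered the log2 change of all 10 genes. Levels spread more widely among the controls than among the Dhx9.1241 arrays for 7 of the 10 genes, the exceptions being Dgcr8, Dicer1 and Tnrc6a: the range within a group was 0.038 to 0.23 in Dhx9.1241 cells and 0.029 to 0.30 in Rluc.713 cells.

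**Figure D4:**
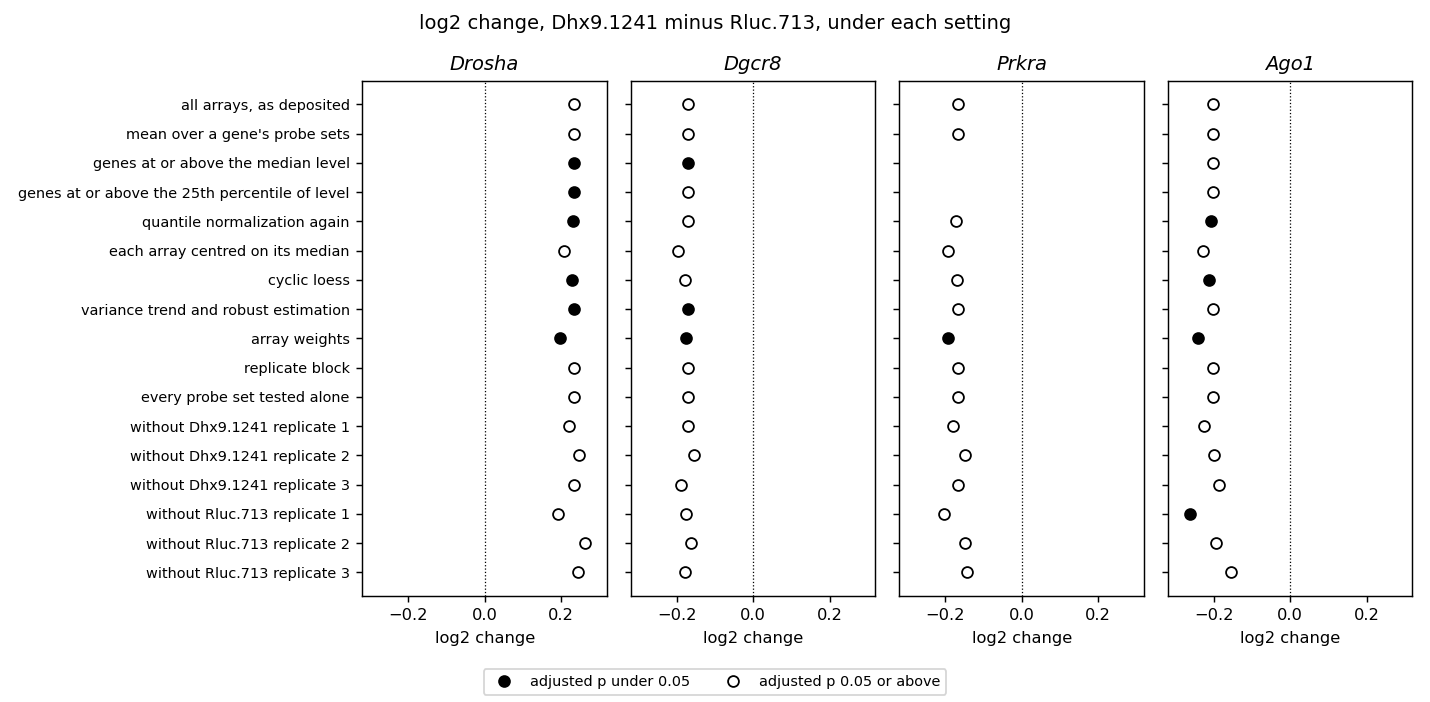
Log2 change, Dhx9.1241 minus Rluc.713, of Drosha, Dgcr8, Prkra and Ago1 under the fit with all arrays and each alternative; filled points have an adjusted p under 0.05. The direction is the same in every row, while the call comes and goes; Prkra has no point under the 2 filters on dim genes, which remove it.

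The wider pathway was described with 7 further lists. Of their 123 measured genes other than Dhx9, 3 rose and none fell, or 2.44%, beside 3.14% of all genes. Before adjustment, 9 were higher and 13 lower at p under 0.05, beside 8.5% higher and 5.63% lower of all genes. Of the 123, 109 lay at or above the median level, where 22.1% of genes had such a p in either direction. Their median log2 change was 0.01, beside 0.0049 over all genes. Without Rluc.713 replicate 1, 7 of the 123 were called, beside 4.77% of all genes, and none in any of the other fits that left out 1 array. Among 30 silencing effectors, the deadenylation and decapping genes that act after RISC, 1 rose. This was Tob1, an antiproliferative adaptor that binds the CCR4-NOT deadenylase, with log2 levels of 10.32, 10.25 and 10.14 in Dhx9.1241 cells, against 9.81, 10.01 and 9.92 in Rluc.713 cells (log2 change 0.32, SE 0.069, limma adjusted p = 0.0485). Tob1 was called in 7 of 16 alternatives and in none of the 6 fits that left out 1 array (adjusted p = 0.0125 to 0.198 over all alternatives); without Rluc.713 replicate 1 it was 0.27 (0.053). Cnot8, a catalytic subunit of that deadenylase, had a change of 0.26 (adjusted p = 0.0875).

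Among 17 genes of microRNA turnover and modification, Adarb1 rose. It encodes the adenosine deaminase ADAR2, which edits double-stranded RNA, and had log2 levels of 10.57, 10.42 and 10.39 in Dhx9.1241 cells, against 10.10, 10.08 and 10.14 in Rluc.713 cells. The log2 change of Adarb1 was 0.36 (SE 0.06, limma adjusted p = 0.0182), and its call was lost in 5 of the 6 fits that left out 1 array and in the blocked fit (adjusted p = 0.0614; 0.00307 to 0.0769 over 16 alternatives). Parn, a poly(A)-specific ribonuclease gene, had a change of -0.27 (adjusted p = 0.115). Of 13 genes of double-stranded RNA-binding proteins, Dhx9 itself fell and Zfr, a zinc finger RNA-binding protein gene, rose. Zfr had log2 levels of 11.64, 11.60 and 11.65 in Dhx9.1241 cells, against 11.34, 11.36 and 11.34 in Rluc.713 cells (log2 change 0.28, SE 0.045, limma adjusted p = 0.0148). Its call was lost in 5 of the 6 fits that left out 1 array, all but that without Rluc.713 replicate 1, in the blocked fit (adjusted p = 0.0816) and after median centring of the arrays (0.0525; 0.000617 to 0.0816 over 16 alternatives).

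No gene was called by limma among 16 nuclear partners of the Microprocessor or 22 RISC cofactors. At an unadjusted p under 0.05, 1 was lower in the first list and 3 in the second, and none was higher. This stands beside 5.63% of all genes lower and 8.5% higher, and 22.1% in either direction of genes brighter than the median gene. The Microprocessor helicase genes Ddx5 and Ddx17 had changes of -0.07 (adjusted p = 0.631) and 0.09 (0.487). Srsf3, a splicing factor gene, stood at -0.29 (0.204) and Ran, the export GTPase gene, at -0.12 (0.392). Among the RISC cofactors, Ptges3, which encodes the HSP90 cochaperone p23, stood at -0.18 (0.181) and Tsn, which encodes a subunit of the nuclease C3PO, at -0.17 (0.205).

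**Figure D5:**
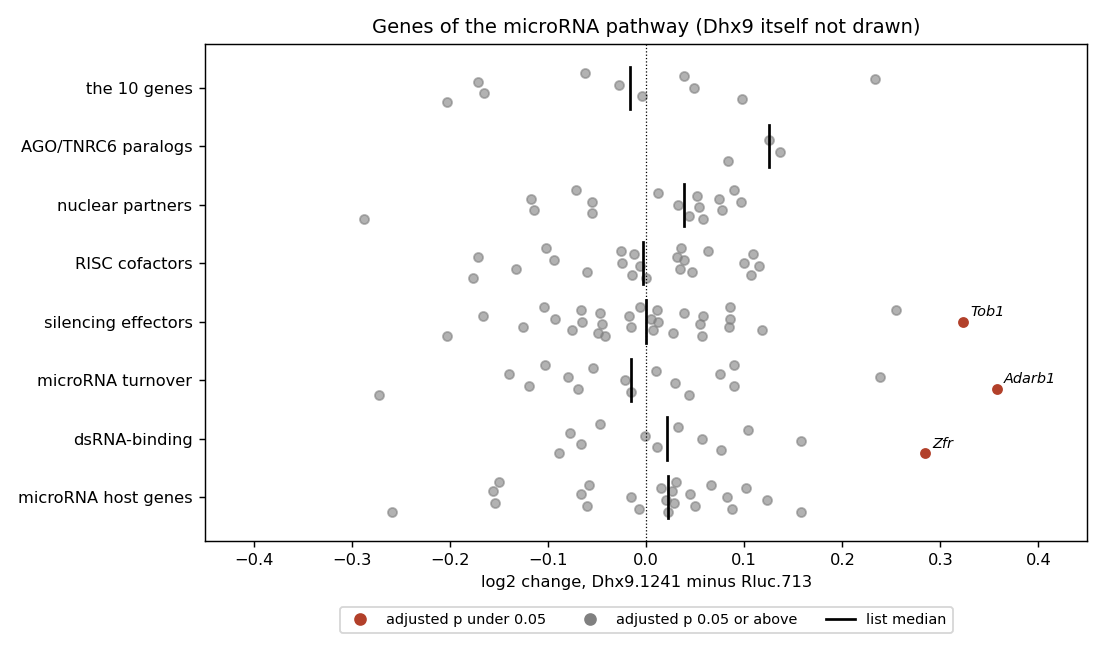
Log2 change, Dhx9.1241 minus Rluc.713, of every measured gene of the 10-gene set and the 7 further lists; each point is 1 gene, red points have an adjusted p under 0.05, and black bars are list medians, with Dhx9 not drawn. Tob1, Adarb1 and Zfr are the 3 red points, all higher in Dhx9.1241 cells.

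Of 23 measured genes that host microRNAs, none was called by limma. Before adjustment, 2 were higher and 4 lower at p under 0.05, beside 8.5% and 5.63% of all genes. Among genes brighter than the median gene, the share in either direction was 22.1%. Ctdspl, a phosphatase gene, had the largest change, with log2 levels of 9.22, 9.19 and 9.07 in Dhx9.1241 cells, against 9.34, 9.50 and 9.41 in Rluc.713 cells (log2 change -0.26, SE 0.062, limma adjusted p = 0.0725). Next came Dnm3 at 0.16 (adjusted p = 0.348), whose annotated microRNAs lie on the opposite strand. Ctdspl and its relatives Ctdsp2 and Ctdsp1 each hold a hairpin of the miR-26 family on their own strand, and the mature forms share a seed, in capitals below. The miR-26a form is the same from Ctdspl, at chr9:119031811-119031832, and from Ctdsp2, at chr10:126995543-126995564, and miR-26b lies in Ctdsp1, at chr1:74394324-74394344.
mmu-miR-26a-5p: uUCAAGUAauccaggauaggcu
mmu-miR-26b-5p: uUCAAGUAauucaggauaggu
The other 2 hosts of the family had log2 changes of 0.01 for Ctdsp2 (SE 0.087, limma adjusted p = 0.982) and 0.02 for Ctdsp1 (SE 0.05, adjusted p = 0.943); they were named after the values were seen. Host messages are not a measure of the mature microRNA.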

How the data were processed

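RNA from 6 samples was labelled with a 3′ in vitro transcription kit and hybridised to Affymetrix arrays, per the labels' protocols. The authors deposited 1 log2 value for each probe set and array, computed with RMA (robust multi-array average), per the submitters' processing notes. Its version, the probe set definition and the build were not given in the sources used here. RMA removes background, normalizes arrays together and summarises probes, which compresses dim differences. The log2 scale was read from the values, 3.97 to 14.6, with array medians of 8.43 to 8.51.

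Of 21212 probe sets, 18786 had 1 gene symbol in the platform annotation, 6 several and 2420 are unnamed here; only the first were tested. Symbols were updated by Entrez number (18775 matched), and the brightest probe set was kept for 2 genes with several, leaving 18784 genes. Dhx9.1241 minus Rluc.713 was fitted with limma 3.58.1 (lmFit, eBayes, two-sided) in R 4.3.3, with no covariate; calls are adjusted p under 0.05 (Benjamini-Hochberg over all genes). The fit was tested on simulated data. Precision is limited by the number of arrays, 3 per hairpin.

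The 10 genes, the lists and the tests were chosen with earlier results of these data known. Named genes are the 10, Dhx9, Dhx29, Ago4, Tnrc6b, Tnrc6c, Ddx5 and Ddx17, and in each pathway list every called gene or, with under 2 called, the 2 with the largest change; of cell type markers, every called gene; others are said to be named after their values were seen. For Drosha, Dicer1 and Ago2 the 3 genes with the highest correlation over the arrays are also named, leaving out clone and predicted names. Of 131 further pathway genes, 123 were measured. Alternatives were another summary of probe sets, 2 filters on dim genes, 3 normalizations, a variance trend with robust estimation, weights for arrays, the replicate block, every probe set alone, and leaving out each array.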

Additional observations from a re-analysis of the deposited data

How the results depend on the processing

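Over 16 alternatives for each of the 10 genes (14 for Prkra), Drosha, Dgcr8, Xpo5, Prkra, Ago1, Ago2 and Tnrc6a kept their direction, and Dhx9 kept its direction and its call (-1.02 to -0.96 when 1 array was left out). The number of the 10 genes called, 0 with all arrays, is given beside the share of all genes called in the same fit. It was 2 when genes dimmer than the median gene were left out (Drosha 0.23, Dgcr8 -0.17), beside 10.6% of 9392 genes. Above the 25th percentile it was 1 (Drosha 0.23), beside 5.1%. It was 2 after quantile normalization again (Drosha 0.23, Ago1 -0.21), beside 4.62%, and 2 after cyclic loess (Drosha 0.23, Ago1 -0.21), beside 4.51%. With a variance trend and robust estimation it was 2 (Drosha 0.23, Dgcr8 -0.17), beside 6.06%. Array weights gave 4 (Drosha 0.20, Dgcr8 -0.18, Prkra -0.19, Ago1 -0.24), beside 6.45%. The number stayed at 0 with the mean over probe sets (3.14% of all genes called) and with every probe set alone (2.49%). It was also 0 after median centring (2.32%), where Drosha was at 0.21 (limma adjusted p = 0.215). The filters test fewer genes, and the cause of the other shifts was not tested. Leaving out 1 array called 0 to 1 of the 10 genes, the 1 being Ago1 without Rluc.713 replicate 1 (4.77% of all genes). Such fits moved Ago1 between -0.26 and -0.15, Dicer1 between -0.017 and 0.012, Tarbp2 between -0.087 and 0.0046 and Ago3 between -0.031 and 0.12. These last 3 have no settled sign. Over all genes the 590 calls became 991 with the median filter, of only 9392 genes tested. They became 1139 with the variance trend, 1211 with array weights, and 205 to 896 when 1 array was left out, the most without Rluc.713 replicate 1. The 3 pathway calls of 123 genes became 9 of 109 with the median filter, beside 10.6% of all genes in that fit. Of the 123, 7 were called after quantile normalization (4.62% of all genes), 1 with median centring (2.32%) and 6 after cyclic loess (4.51%). With the variance trend 11 were called (6.06%), and with array weights 10 (6.45%). When 1 array was left out, 7 were called without Rluc.713 replicate 1 (4.77%) and 0 in each other such fit (1.09% to 1.54%). The labels number the replicates but do not say whether same-numbered arrays belong together. Deviations of same-numbered arrays correlated at -0.27, -0.34 and 0.24, and Dhx9.1241 replicate 2 correlated best with Rluc.713 replicate 1 (0.48). With 3 arrays a group and Rluc.713 replicate 1 apart from the other controls, these values cannot settle whether arrays were paired. The replicate block left 264 calls over all genes, 0 in the wider pathway and 0 of the 10 genes, with Drosha at 0.23 (adjusted p = 0.186). With 3 arrays a group, standard errors of the 10 genes were 0.046 to 0.089 on the log2 scale.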

Other observations

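The genes whose log2 levels followed those of the 3 nuclease genes most closely over the 6 arrays were Prkd2 (Pearson r = 0.999), Lamp1 (0.999) and Slc1a5 (0.996) for Drosha, Nfs1 (0.996), Zbtb20 (0.995) and Olfr1102 (0.995) for Ago2, and Tulp3 (0.981), Fem1a (0.979) and Samd8 (0.977) for Dicer1. High values were not limited to the named genes: 399 of 18082 genes had an r over 0.95 with Drosha, 217 with Ago2 and 14 with Dicer1. The arrays share the hairpin groups and the deviation of Rluc.713 replicate 1, so these are descriptions. Among the 10 genes themselves, the highest r was that of Prkra and Ago1 (0.968), followed by Dgcr8 and Prkra (0.898) and Drosha and Ago2 (0.852), and the lowest was that of Drosha and Dgcr8 (-0.867).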
